A study of Mus musculus with 6 samples.

Results

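The adult globins and the first enzyme of red cell heme synthesis were read here as 5 genes of a table of 23122, measured by RNA sequencing in subcutaneous CT26 tumors. The genes are Hba-a1 and Hba-a2, which encode the alpha chain of adult hemoglobin, Hbb-bs and Hbb-bt, which encode its beta chain, and Alas2, the erythroid aminolevulinate synthase. They were chosen by name, after their levels in these same tumors were known to be lower with TP-18, as a readout of blood content. Their difference between the groups is therefore described and not tested. CT26 is a murine colorectal carcinoma line, and each tumor grew in the flank of a female BALB/c mouse aged 6 to 8 weeks that had received 500000 cells. Once tumors reached 100 to 200 mm3, animals were assigned at random to TP-18 at 50 mg/kg by mouth every day for 3 weeks, or to vehicle for the same time, and the sequenced set holds 3 TP-18 and 3 vehicle tumors. The series title calls TP-18 an antagonist of both EP2 and EP4, which are receptors for prostaglandin E2. The labels do not say that each library came from its own mouse, so the spread between tumors may in part be technical.

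Hemoglobin is built in red cell precursors from alpha and beta chains, each of which holds a heme group. ALAS2 makes aminolevulinic acid from glycine and succinyl-CoA in the mitochondria of these cells, the committed step of their heme synthesis, while ALAS1 does so in other cells. Mature mouse red cells have no nucleus, but young ones, the reticulocytes, still carry mRNA dominated by globin, so that globin reads in a solid tissue are a common mark of the blood it held. BALB/c mice are known to carry another haplotype of the beta globin locus than C57BL/6J, the strain of the reference genome, with genes named Hbb-b1 and Hbb-b2. Levels of Hbb-bs and Hbb-bt in these tumors thus depend on how reads of one haplotype mapped to the other, and Hbb-b1 and Hbb-b2 were not analysed here.

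In GRCm38 the alpha genes lie on chromosome 11, Hba-a1 (Entrez 15122) at 32283672 to 32284486 and Hba-a2 (Entrez 110257) at 32296492 to 32297310. The beta genes lie on chromosome 7, Hbb-bt (Entrez 101488143) at 103812524 to 103813923 and Hbb-bs (Entrez 100503605) at 103826523 to 103827928. Alas2 (Entrez 11656) lies on chromosome X at 150547417 to 150570622. The copies of each chain are nearly the same: the coding sequences of Hba-a1 and Hba-a2 differ at 1 of 426 bases and those of Hbb-bs and Hbb-bt at 1 of 441, while Hba-a1 and Hbb-bs are 55.1% identical. The stretches shown are the 60 coding bases around the difference between the alpha copies (bases 349 to 408) and the 60 that end with that between the beta copies (bases 358 to 417). They are shown because they hold what separates the reference copies within their coding parts. The differing base is in capitals, and the sequences are from GENCODE M21 transcripts.
Hba-a1: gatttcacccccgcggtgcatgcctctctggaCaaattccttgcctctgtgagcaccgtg
Hba-a2: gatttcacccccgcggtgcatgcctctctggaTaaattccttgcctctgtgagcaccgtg
Hbb-bs: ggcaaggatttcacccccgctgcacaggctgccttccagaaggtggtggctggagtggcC
Hbb-bt: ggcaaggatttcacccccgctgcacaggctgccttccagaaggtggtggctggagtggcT

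Of all stretches of 100 bases in the main Hba-a2 reference transcript 74.5% occur unchanged in that of Hba-a1, and of those in the Hbb-bs reference transcript 62.6% occur in that of Hbb-bt. How reads from such stretches were counted is not given in the sources used here, so the split between the copies of a chain is uncertain. A chain's sum does not depend on that split, but it would be too low if shared reads were dropped. The chains could then lose different parts, so shares between alpha and beta carry this limit as well.

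The 250 bases before the start of each gene are shown for Hba-a1, Hbb-bs, Hbb-bt and Alas2, since these genes had similar profiles across the tumors. The sequences are from RefSeq on GRCm38.p6, and capitals mark 2 motifs of erythroid factors, searched on both strands. The motif of GATA factors was spelled AGATAA, where T was also allowed as the first base and G as the last, and that of KLF factors was spelled CCNCNCCC. The windows are chr11:32283422-32283671 on the plus strand, chr7:103827929-103828178 and chr7:103813924-103814173 on the minus strand, and chrX:150547167-150547416 on the plus strand.
Hba-a1: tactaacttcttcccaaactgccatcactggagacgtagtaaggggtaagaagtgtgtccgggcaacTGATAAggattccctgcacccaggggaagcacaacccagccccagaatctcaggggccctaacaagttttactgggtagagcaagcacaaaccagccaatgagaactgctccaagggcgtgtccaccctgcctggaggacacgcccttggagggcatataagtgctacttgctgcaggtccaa
Hbb-bs: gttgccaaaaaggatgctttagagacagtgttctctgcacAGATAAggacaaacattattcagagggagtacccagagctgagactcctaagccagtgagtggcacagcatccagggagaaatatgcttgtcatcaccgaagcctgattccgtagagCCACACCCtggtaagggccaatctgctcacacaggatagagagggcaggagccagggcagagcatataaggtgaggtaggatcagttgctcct
Hbb-bt: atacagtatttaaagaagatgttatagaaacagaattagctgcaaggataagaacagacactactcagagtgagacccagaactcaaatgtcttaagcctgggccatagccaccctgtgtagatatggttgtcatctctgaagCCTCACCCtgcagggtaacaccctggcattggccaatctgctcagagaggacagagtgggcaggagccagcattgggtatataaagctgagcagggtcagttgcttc
Alas2: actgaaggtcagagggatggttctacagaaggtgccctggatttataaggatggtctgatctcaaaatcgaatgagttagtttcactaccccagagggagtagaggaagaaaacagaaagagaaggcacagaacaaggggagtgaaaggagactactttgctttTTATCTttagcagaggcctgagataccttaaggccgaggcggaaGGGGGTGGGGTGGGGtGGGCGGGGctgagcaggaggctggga

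The Hba-a2 window shares an unbroken run of 247 bases with that of Hba-a1, and the Hbb-bs and Hbb-bt windows are 68.4% identical over 256 aligned columns. Hba-a1, Hba-a2, Hbb-bs and Alas2 held 1 GATA match each and this window of Hbb-bt 0, against 26.5% of 32851 promoter windows of this length in the RefSeq table. A KLF match was found in Hbb-bs, in Hbb-bt and, 4 times with overlaps, in Alas2, against 45.9% of the windows. All 4 globin windows held ATATAA 23 to 31 bases before the start, which 9.1% of windows hold anywhere in their length, and the Alas2 window did not. Such matches describe letters and not bound sites.

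Libraries held 35347034 to 36489081 counts in TP-18 tumors and 34813482 to 35163739 in vehicle tumors. Across 14189 tested genes edgeR's quasi-likelihood test (Benjamini-Hochberg adjusted p under 0.05) called 12.4%, of which more were higher (7.09% of tested genes) than lower (5.26%) with TP-18. Most epithelial markers of the labelled colon carcinoma were scarce, and they went both ways. Epcam had 7, 8 and 24 counts in TP-18 tumors, against 0, 0 and 2 in vehicle tumors, and Cdh1, the epithelial cadherin, had 131, 137 and 195 in TP-18 tumors, against 37, 68 and 77 in vehicle tumors. Krt18, a keratin, had 156 to 274 counts in TP-18 and 300 to 416 in vehicle tumors. EdgeR called neither Cdh1 (log2 fold change 1.15 ± 0.34, adjusted p = 0.0647) nor Krt18 (-0.86 ± 0.26, adjusted p = 0.0649), the only members high enough to be tested, while DESeq2 called Cdh1 higher and Krt18 lower. Without a filter on low counts edgeR called Cdh1 (0.0454) and Epcam (0.0348) higher and Krt18 (0.0323) lower. On log2 FPKM limma called Cdh1 higher. Of the rest, Krt8 had 6 to 7 counts in TP-18 and 8 to 23 in vehicle tumors, Krt19 0 to 9 in TP-18 and 4 to 94 in vehicle tumors, Cdx2 2 to 7 in TP-18 and 8 to 16 in vehicle tumors, and Vil1 0 to 8 in TP-18 and 0 to 2 in vehicle tumors.

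All 5 genes were lower with TP-18, without overlap between the groups, by 8.55- to 11.9-fold in the fit. Together they took 551, 1238 and 684 counts in TP-18 tumors 1 to 3, against 2327, 5962 and 12638 in vehicle tumors 1 to 3, at most 0.0362% of a library. The groups did not overlap for 35.8% of all tested genes, 17.8% with TP-18 lower and 18% with TP-18 higher. By edgeR 4 of the 5 genes were called lower, all but Hbb-bs, against 5.26% of all tested genes, and 0.402% of tested genes were called lower by at least 2-fold. A fitted change as low as that of the least changed of the 5 was found for 12 genes, or 0.0846% of those tested, with the 5 themselves among them. Since the genes were picked for this difference, nothing is read from these counts. With bulk tissue, fewer red cells and less RNA per red cell cannot be told apart.

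Hbb-bs was the most abundant beta globin, at 8.07, 19.7 and 9.33 CPM (counts scaled to library size with TMM factors) in TP-18 tumors 1 to 3, against 34.4, 99.6 and 234 CPM in vehicle tumors 1 to 3. The highest TP-18 tumor lay below the lowest vehicle tumor by a factor of 1.74, the narrowest gap of the 5 genes. The group means were 12.4 ± 6.40 CPM in TP-18 and 123 ± 102 CPM in vehicle tumors (SD, n = 3 each), a log2 fold change of -3.31 ± 0.84 (SE). Hbb-bt, the other beta chain gene, stood at 1.45, 2.52 and 2.00 CPM in TP-18 tumors, against 6.52, 19.1 and 42.9 CPM in vehicle tumors. Its groups lay 2.59-fold apart at the nearest, and its log2 fold change was -3.52 ± 0.75.

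The alpha genes had the same order of tumors. Hba-a1 measured 3.74, 7.55 and 3.95 CPM in TP-18 tumors, against 17.1, 40.5 and 72.6 CPM in vehicle tumors, a log2 fold change of -3.10 ± 0.63. Hba-a2 measured 1.21, 3.31 and 1.69 CPM in TP-18 tumors, against 6.49, 17.0 and 33.1 CPM in vehicle tumors, a log2 fold change of -3.19 ± 0.72. In both genes TP-18 tumor 2 was the highest of its group, vehicle tumor 3 the highest of all, and the groups did not overlap.

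Alas2 stood at 13, 28 and 22 counts in TP-18 tumors, against 60, 206 and 388 in vehicle tumors, or 0.56 ± 0.21 CPM in TP-18 and 6.71 ± 5.22 CPM in vehicle tumors. Its log2 fold change of -3.57 ± 0.74 was the largest in size of the 5. TP-18 tumor 2 was again the highest of its group and vehicle tumor 3 of its own. In order of fitted change among the 14189 genes, lowest first, Alas2 was number 5, Hbb-bt 6, Hbb-bs 8, Hba-a2 10 and Hba-a1 12.

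**Figure D1:**
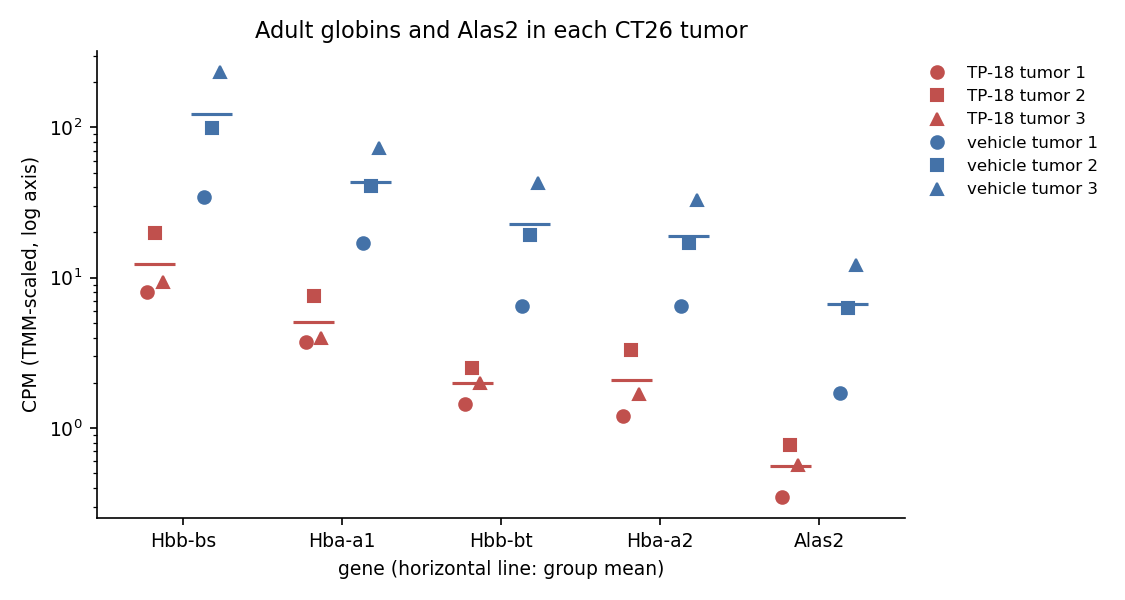
CPM of each gene on a log axis, with 1 point per tumor, TP-18 left of vehicle for each gene, and a line at the group mean. For all 5 genes each TP-18 tumor lies below each vehicle tumor, and vehicle tumor 3 is the highest point.

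The vehicle tumors differed widely among themselves. Vehicle tumor 3 exceeded vehicle tumor 1 by 4.24-fold for Hba-a1, 5.11-fold for Hba-a2, 6.80-fold for Hbb-bs, 6.59-fold for Hbb-bt and 7.10-fold for Alas2. Within TP-18 tumors the highest exceeded the lowest by 1.73- to 2.74-fold. Leaving out vehicle tumor 3 brought the log2 fold changes to -2.42 for Hbb-bs, -2.67 for Hbb-bt, -2.49 for Hba-a1, -2.49 for Hba-a2 and -2.82 for Alas2. The number of the 5 genes called lower was 4 without vehicle 3, 5 without vehicle 1, and 0 without vehicle 2 or without any 1 of TP-18 1, TP-18 2 and TP-18 3. With all 6 libraries DESeq2 called 5 and limma-voom 1, and all 5 had an unadjusted p under 0.05 in each of these fits. Those counts are descriptions as well.

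Per length, as FPKM from the authors' table, Hbb-bs came first in every tumor, at 13.2 to 31.9 in TP-18 and 53.8 to 336 in vehicle tumors. Hba-a1 came second, at 7.01 to 14.0 FPKM in TP-18 and 30.6 to 119 in vehicle tumors. Hba-a2 and Hbb-bt changed places between tumors: Hba-a2 averaged 3.85 ± 1.99 FPKM in TP-18 and 31.3 ± 21.4 in vehicle tumors, and Hbb-bt 3.31 ± 0.86 in TP-18 and 33.8 ± 26.5 in vehicle tumors. Alas2 came last at 0.29 ± 0.11 FPKM in TP-18 and 3.10 ± 2.34 in vehicle tumors. Among 23122 genes ordered by FPKM, Hbb-bs ranked 4633, 2092 and 4147 in TP-18 tumors and 1234, 388 and 189 in vehicle tumors.

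The proportions of the genes to each other varied far less than their levels. The alpha genes made up 34.2%, 32.8% and 33.2% of adult globin counts in TP-18 tumors 1 to 3, against 36.6%, 32.6% and 27.6% in vehicle tumors 1 to 3. The exact binomial intervals (95%, counting error only) were 34.6 to 38.6% in vehicle tumor 1 and 26.9 to 28.45% in vehicle tumor 3, so that the vehicle tumors differed from each other while the TP-18 values lay between those of vehicle tumors 1 and 3. Alas2 took 2.36%, 2.26% and 3.22% of the counts of the 5 genes in TP-18 tumors, against 2.58%, 3.46% and 3.07% in vehicle tumors, with TP-18 intervals that span 1.26 to 4.83%.

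The split between copies was also steady, with 1 exception. Hbb-bt held 15.3%, 11.3% and 17.6% of beta counts in TP-18 tumors, against 15.9%, 16.1% and 15.5% in vehicle tumors. The interval of TP-18 tumor 2, 9.22 to 13.7%, lay below those of all 3 vehicle tumors and of TP-18 tumor 3, and overlapped that of TP-18 tumor 1. Hba-a2 held 24.5%, 30.5% and 30.0% of alpha counts in TP-18 tumors and 27.5%, 29.6% and 31.3% in vehicle tumors.

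**Figure D2:**
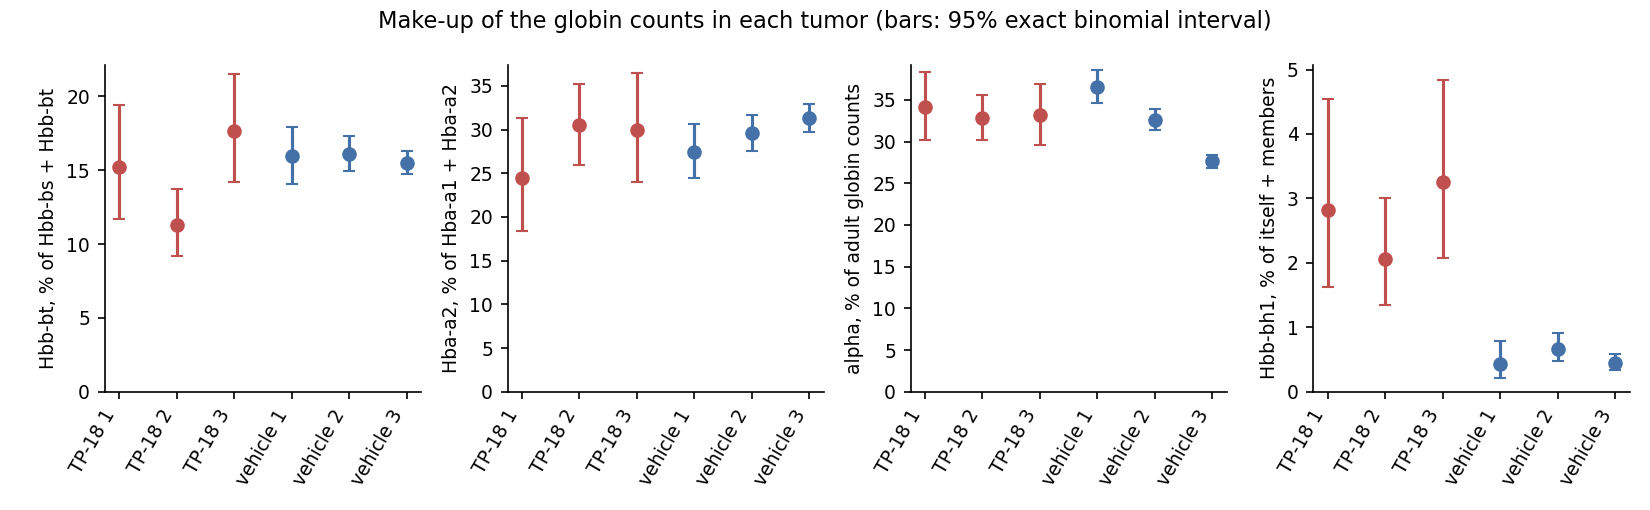
Shares within the globin and Alas2 counts of each tumor, in percent of counts, with TP-18 tumors on the left, vehicle tumors on the right and 95% exact binomial intervals. Hbb-bt, Hba-a2 and the alpha chains have overlapping shares in the TP-18 and vehicle tumors, whereas the embryonic Hbb-bh1 makes up 2.06 to 3.25% in TP-18 and 0.428 to 0.666% in vehicle tumors.

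Globin genes outside the adult set were scarce. Hbb-bh1, an embryonic beta-like globin of the same cluster, had 16, 26 and 23 counts in TP-18 tumors, against 10, 40 and 57 in vehicle tumors. Its groups overlapped, and its log2 fold change of -0.92 ± 0.61 missed the threshold (adjusted p = 0.354 by edgeR). Relative to the sum of itself and the 5 genes it made up 2.82%, 2.06% and 3.25% in TP-18 tumors, against 0.428%, 0.666% and 0.449% in vehicle tumors, where no TP-18 interval (lowest bound 1.35%) reached a vehicle one (highest bound 0.906%). Since the 5 genes were chosen for their lower level with TP-18, this share is a description too. Hbb-y, another embryonic gene, had 0 to 1 counts in TP-18 and 2 to 4 in vehicle tumors, and the theta-like Hbq1a and Hbq1b had 1 count each in all 6 libraries together. Of the globins of other cells, Mb, the myoglobin of muscle, had 27 to 62 counts in TP-18 and 5 to 17 in vehicle tumors (log2 fold change 2.00 ± 0.55, adjusted p = 0.0517). Cygb, a globin of fibroblasts, had 126 to 334 counts in TP-18 and 87 to 123 in vehicle tumors (1.05 ± 0.36, adjusted p = 0.0969), and DESeq2 called both Mb and Cygb higher. Ngb, the remaining globin of this list, went the other way without overlap. It had 2, 0 and 1 counts in TP-18 tumors, against 5, 3 and 3 in vehicle tumors, too few to be tested.

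Several genes that mark red cell precursors were almost unread in either group. Ahsp, the chaperone of alpha globin, had 0 to 1 counts per tumor in TP-18 and 0 in vehicle tumors, and Slc4a1, the anion exchanger of the red cell membrane, 0 to 3 in TP-18 and 1 to 3 in vehicle tumors. Of the erythroid transcription factors, Gata1 had 0 to 4 counts in TP-18 and 1 to 3 in vehicle tumors, Klf1 0 to 6 in TP-18 and 0 to 4 in vehicle tumors, and Gfi1b a single count in all. At this depth no difference in these genes was detectable.

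Of 32 red cell membrane, enzyme and chaperone genes listed, 27 were in the table and 19 could be tested, many of them also used by other cells. By edgeR 1 was called lower and 1 higher, shares near those of all tested genes (5.26% lower and 7.09% higher), 17 missed the threshold, and the median log2 fold change was -0.07, against -0.01 over all genes tested. Add2, the beta adducin of the membrane skeleton, fell to 1.10 ± 0.36 CPM in TP-18 tumors, against 3.61 ± 0.53 in vehicle tumors (log2 fold change -1.71 ± 0.32, adjusted p = 0.0166). That call was lost without TP-18 2 (0.0577), TP-18 3 (0.0652) or vehicle 2 (0.0716). Car2, a carbonic anhydrase of red cells, osteoclasts and other cells, rose to 10.98 ± 2.31 CPM in TP-18 tumors, against 3.82 ± 0.60 in vehicle tumors (1.52 ± 0.21, adjusted p = 0.00661), and passed without any 1 library. Aqp1, a water channel abundant here, measured 611 ± 24.9 CPM in TP-18 and 643 ± 28.9 in vehicle tumors (adjusted p = 0.578). Bnip3l, which clears mitochondria from reticulocytes and is induced in hypoxia, measured 181 ± 16.0 CPM in TP-18 and 230 ± 65.8 in vehicle tumors (adjusted p = 0.297) and was called lower (0.0460) without vehicle 1, which brought the list's lower calls to 2. Without TP-18 2, TP-18 3 or vehicle 2 the list had 0 lower calls, with 3, 3 and 5 members at an unadjusted p under 0.05.

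None of the other heme synthesis enzymes, which turn aminolevulinic acid into heme or, as Alas1, make it outside red cells, passed the test. All 8 were tested and 0 were called by edgeR, DESeq2 or limma-voom, with 1 at an unadjusted p under 0.05. Their median log2 fold change was 0.05 and their range -0.31 to 0.34. Cpox, coproporphyrinogen oxidase, had the smallest p, at 48.3 ± 5.97 CPM in TP-18 and 59.8 ± 3.50 in vehicle tumors (-0.31 ± 0.11, adjusted p = 0.0969). Fech, which inserts iron to complete heme, measured 78.5 ± 0.99 CPM in TP-18 and 77.8 ± 7.64 in vehicle tumors, and Alas1, the housekeeping form of the first enzyme, had a log2 fold change of 0.09 ± 0.11. Other than Alas2, which is erythroid, these enzymes serve all cells.

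Heme and iron transport genes were also mostly without a call. Of 16 tested 1 was called higher and 0 lower, with a median of -0.0035, and 3 had an unadjusted p under 0.05. DESeq2 called 1 higher, Abcg2, and 1 lower, Slc25a37, and limma-voom called 0 in either direction, with 3 at an unadjusted p under 0.05. The share of all tested genes called higher by edgeR was 7.09%. Abcg2, an exporter of porphyrins and drugs, rose to 5.22 ± 1.89 CPM in TP-18 tumors, against 2.07 ± 0.54 in vehicle tumors (1.34 ± 0.34, adjusted p = 0.0416), a call lost without TP-18 2 (0.125), TP-18 3 (0.136), vehicle 1 (0.0716) or vehicle 2 (0.133), by limma-voom (0.0644) and with the replicate number as a block (0.0666). Slc25a37, mitoferrin-1, which brings iron into erythroid mitochondria, measured 134, 177 and 135 CPM in TP-18 tumors, against 171, 210 and 225 in vehicle tumors. Its groups overlapped, and its log2 fold change of -0.44 ± 0.14 missed the threshold (adjusted p = 0.0837), although it was called lower without TP-18 2 (0.0482) or vehicle 1 (0.0383). Tfrc, the transferrin receptor, which red cell precursors and dividing cells use, measured 79.0 ± 5.54 CPM in TP-18 and 70.8 ± 7.60 in vehicle tumors (adjusted p = 0.321).

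Among erythroid transcription factors and the erythropoietin receptor, 8 of 11 could be tested and 0 were called by edgeR, with 4 at an unadjusted p under 0.05. DESeq2 called Lmo2 and Myb higher and limma-voom Bcl11a higher, and without vehicle 2 edgeR called Bcl11a higher (0.0395). The median of the list was 0.38. These factors also act in endothelium, progenitors and lymphocytes. Myb, a factor of blood progenitors, measured 1.94 ± 0.47 CPM in TP-18 and 0.75 ± 0.34 in vehicle tumors (adjusted p = 0.0603), without overlap between the groups. Ldb1, the most abundant of the 8, went the other way, also without overlap. It measured 95.7 ± 3.52 CPM in TP-18 and 106 ± 3.33 in vehicle tumors (adjusted p = 0.184). Of the 8 tested, 4 were higher and 1 lower without overlap, against 18% and 17.8% of all tested genes.

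**Figure D3:**
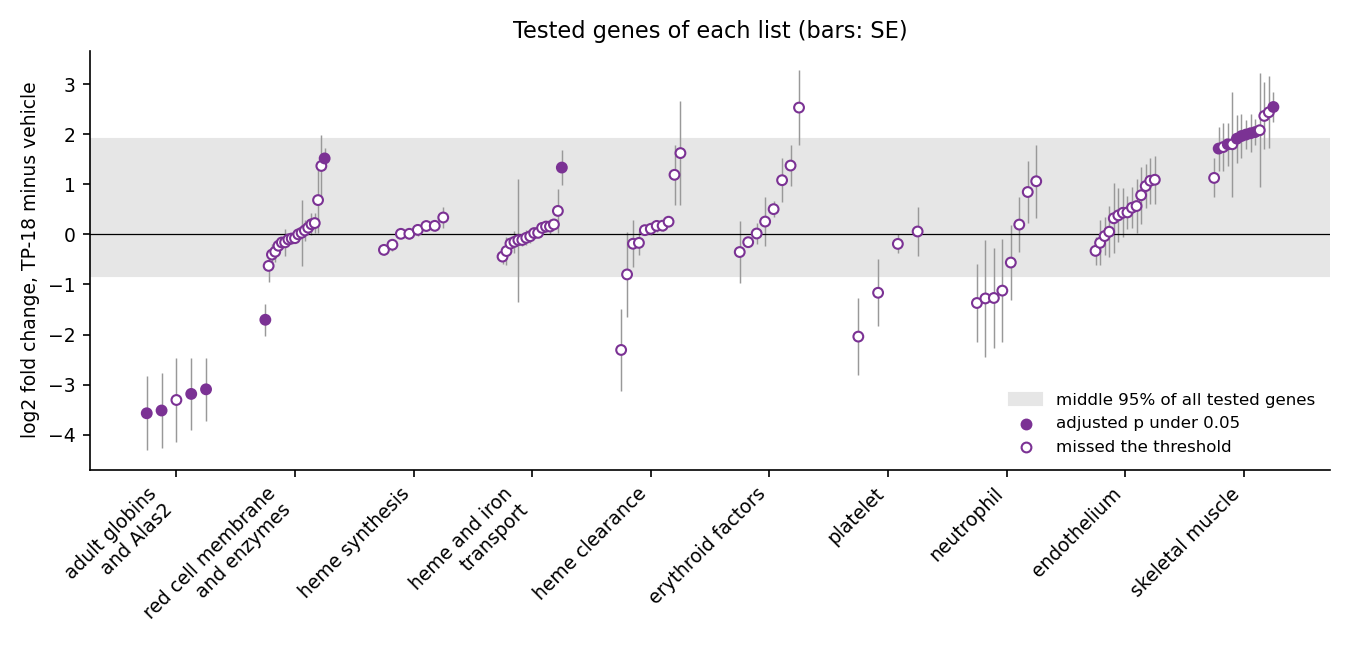
Log2 fold change (TP-18 minus vehicle) of every tested gene in each list, with SE bars, filled points for an adjusted p under 0.05 and a grey band for the middle 95% of all tested genes. The globins and Alas2 lie between -3.57 and -3.10, apart from the heme synthesis enzymes between -0.31 and 0.34.

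Genes that clear hemoglobin and heme varied between tumors. None of 11 was called by edgeR or limma-voom, 2 had an unadjusted p under 0.05 in each, and DESeq2 called Cd163 lower. On log2 FPKM limma called Blvra and Hmox2 higher. With the replicate number as a block edgeR called Hp, haptoglobin, higher (log2 fold change 1.26, adjusted p = 0.0172). Without the block its log2 fold change was 1.19 ± 0.60 (adjusted p = 0.245). Hmox1, heme oxygenase 1, which degrades heme and is induced by it, measured 106, 369 and 114 CPM in TP-18 tumors, against 94.9, 299.9 and 631 in vehicle tumors. The groups overlapped, but within each group the tumor with the most globin also had the most Hmox1, and the correlation of deviations from the group means with those of the 5 genes was 0.97 over the 6 libraries. A correlation of deviations as high was found for 1.24% of the other tested genes, and one above 0.9 for 5.96%. Listed genes above 0.9 were, besides Hmox1, Hbb-bh1 (0.96), Cxcr2, Slc11a2, Il1r2, Hpx, Pf4, S100a8 and Slc40a1. Without removal of the group means the correlation of Hmox1 with the 5 genes was 0.71. Cd163, the macrophage receptor for hemoglobin bound to haptoglobin, stood at 9.41, 6.21 and 7.92 CPM in TP-18 tumors, against 12.8, 18.7 and 85.2 in vehicle tumors. Its groups did not overlap and its log2 fold change was -2.31 ± 0.81 (adjusted p = 0.131), or -0.99 without vehicle 3, where it was called lower (0.0385).

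Markers of other cells that blood brings were set beside the globins. The 4 globins summed to 14.5, 33.1 and 17.0 CPM in TP-18 tumors, against 64.5, 176 and 383 in vehicle tumors. The 12 platelet markers summed to 17.9, 31.8 and 28.5 CPM in TP-18 tumors, against 26.4, 34.3 and 104 in vehicle tumors, mostly from Pf4, which macrophages can also make. Itga2b, the platelet integrin alpha IIb, had 147, 162 and 198 counts in TP-18 tumors, against 175, 164 and 171 in vehicle tumors (log2 fold change -0.19 ± 0.19, adjusted p = 0.541). Gp1bb, a chain of a platelet adhesion receptor, had 9 to 29 counts in TP-18 and 12 to 20 in vehicle tumors (0.06 ± 0.49, adjusted p = 0.9505), while Gp5, Gp6, Gp9, Treml1, Tubb1 and Clec1b had at most 5 in any tumor. Of the 4 platelet genes tested edgeR called 0, with 1 at an unadjusted p under 0.05, limma-voom 0 and DESeq2 1, the platelet chemokine Ppbp, which edgeR also called without vehicle 1 (0.0493). Ppbp stood at 36, 43 and 67 counts in TP-18 tumors, against 55, 92 and 371 in vehicle tumors.

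The 14 neutrophil markers summed to 73.9, 158 and 121 CPM in TP-18 tumors, against 50.0, 83.8 and 366 in vehicle tumors. Of 8 tested 0 were called by edgeR, DESeq2 or limma-voom and 0 had an unadjusted p under 0.05 in any of them, while Csf3r was called higher without vehicle 3 (0.0163). Vehicle tumor 3 had the highest sum of globins, of platelet markers and of neutrophil markers, and the groups overlapped in the last of these sums and in the platelet sum. The neutrophil members went both ways: 7 of 14 were highest in vehicle tumor 3 and 7 in TP-18 tumor 2. This split includes members too low to be tested. Ngp, Camp, Ltf, Elane and Ly6g had 42, 11, 13, 5 and 7 counts in TP-18 tumor 2, their highest tumor. Mpo had 1 count in vehicle tumor 3. Of the 8 tested, only Mmp8 and Mmp9 were highest in TP-18 tumor 2. S100a9, a calcium-binding protein of myeloid cells, measured 36.2 CPM in TP-18 tumor 2 and 196 in vehicle tumor 3, whereas Mmp9, a gelatinase, measured 56.2 CPM in TP-18 tumor 2 and 20.1 in vehicle tumor 3. The 14 endothelial markers, all of them tested, summed to 196, 419 and 276 CPM in TP-18 tumors, against 295, 303 and 127 in vehicle tumors, so that the tumor with the most globin had the lowest endothelial sum. EdgeR and limma-voom called 0 of the 14, with 0 and 1 at an unadjusted p under 0.05, and DESeq2 1, Kdr, as higher.

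Skeletal muscle markers ran the other way. Their summed level was 133, 72.5 and 146 CPM in TP-18 tumors, against 29.2, 39.1 and 12.8 in vehicle tumors. Of 14 tested, 8 were called higher by edgeR, against 7.09% of all tested genes, Atp2a1, Myh4 and Ckm with the smallest p. The number was 3 without TP-18 1, TP-18 3 or vehicle 2, 7 without TP-18 2 and 8 without vehicle 1 or vehicle 3. Since the list was chosen with earlier results of these data known, these counts are descriptions. The part that host tissue, platelets or neutrophils had in the globin difference was not tested.

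**Figure D4:**
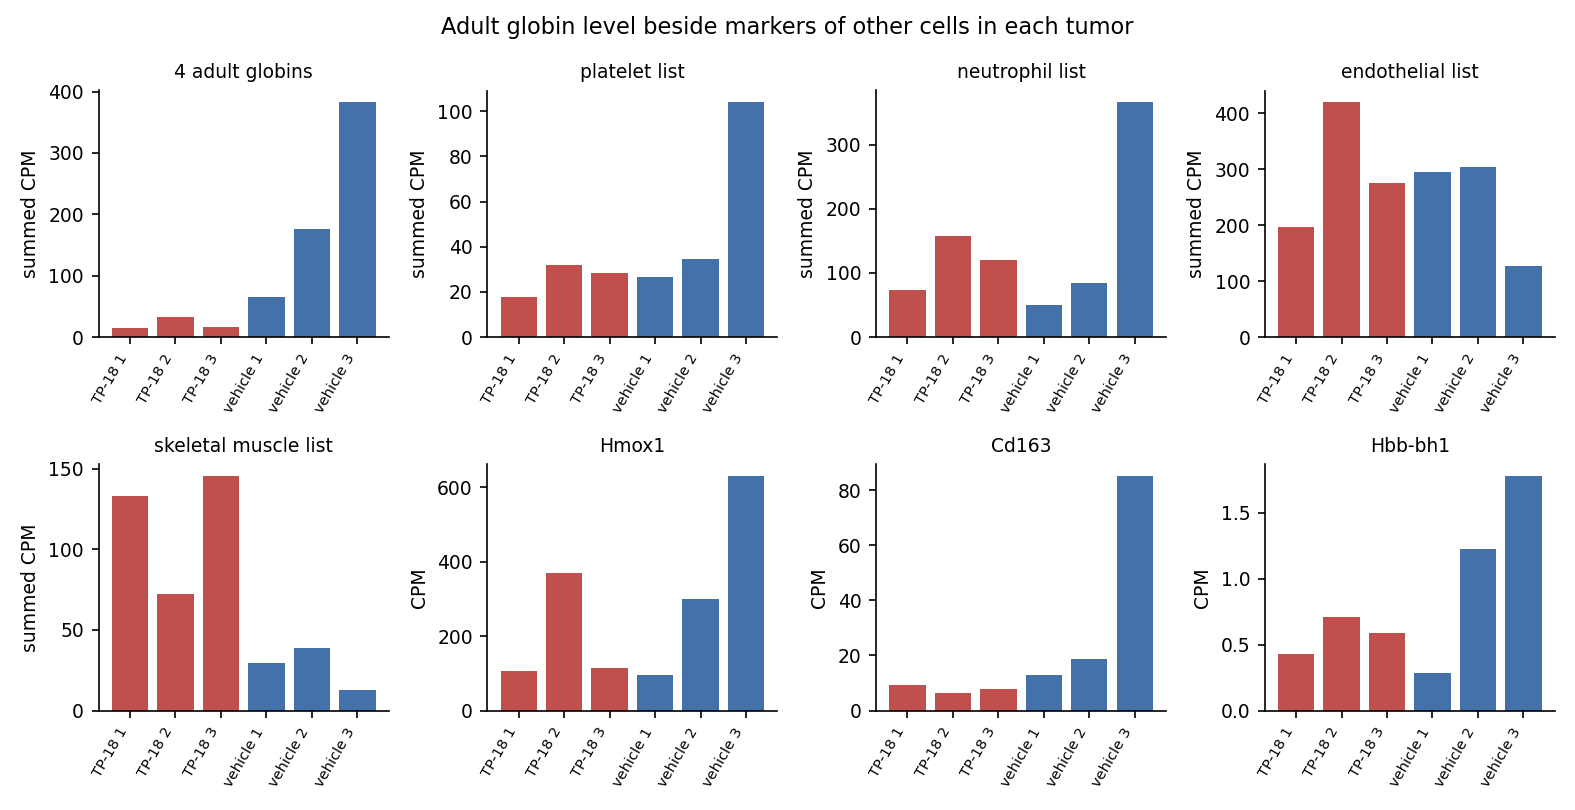
Level in each tumor, in CPM for a gene and summed CPM for a list, with TP-18 tumors on the left of each panel and vehicle tumors on the right. The globin bars of the TP-18 tumors are all below those of vehicle tumors, the muscle bars are all above them, and vehicle tumor 3 has the highest globin, platelet, neutrophil, Hmox1, Cd163 and Hbb-bh1 bars.

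Across the 6 libraries the log2 CPM of the 5 genes followed each other closely, with Pearson correlations of 0.990 to 0.998 between pairs, and of 0.958 to 0.998 after group means were removed. The libraries share their depth and scaling, and 939 of 14184 other tested genes, 6.62%, also correlated with the mean of the 5 above 0.9. The 10 with the highest correlation, 0.993 to 0.997, were Vapa, Snhg15, Sft2d1, Smad7, Syf2, Fam204a, Fbxo24, Cd44, Topors and Phlda1. Their changes were far smaller than those of the globins, from -0.18 (log2) for Topors to -1.10 for Phlda1. The TP-18 tumors did not rank as they do for the globins in all of them: Snhg15, Syf2, Fam204a, Topors and Phlda1 were higher in TP-18 tumor 1 than in TP-18 tumor 3. Of the red cell list 0 of 19 genes and of the heme synthesis list 0 of 8 had a correlation above 0.9. Slc25a37, at 0.95, was 1 of 16 among transport genes, or 6.25%, near the 6.62% of all other tested genes. Krt18, at 0.902, was 1 of 2 among epithelial markers, and the remaining lists had 0. For deviations from the group means, Rbm7, Plcxd2, Abcg4, Layn and Cask were the closest 5, at 0.999 to 1.00.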

How the data were processed

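RNA sequencing libraries of 3 TP-18 and 3 vehicle tumors were grouped by the labels. RNA came from frozen tumors (TRIzol, VAHTS Universal V6 library kit), per the labels' protocols; fastp, HISAT2, HTSeq and GRCm38 are named in the submitters' processing notes. Not given in the sources used here: tool versions, strandedness and how multi-mapping reads were treated. The authors deposited whole-number counts per gene. Their deposited FPKM values equal the count divided by a whole-number length (within 0.01 bases) and by the library total, checked in 15884 genes.

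Counts were tested in R 4.3.3 with edgeR 4.0.16 (filterByExpr with minimum count 10 and minimum total 15, 14189 of 23122 genes kept; TMM; robust quasi-likelihood F test, two-sided; adjusted p under 0.05). SE was derived from the F statistic, and log2 fold changes carry a prior count of 0.125. Alternatives used DESeq2 1.42.0, limma 3.58.1 (voom, and limma-trend on log2 FPKM with pseudocounts of 1 and 0.1), other scalings and filters, summed globin copies, a replicate block and leaving out each library. The fit was tested on simulated data first. Intervals of shares are exact (Clopper-Pearson) and, like the errors, say nothing of PCR copies.

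The 5 genes and the 12 lists (152 symbols, 142 in the table) were chosen with earlier results of these data known. Listed genes could be named from each list by function, called members first by smallest p and others by abundance or role; genes of similar profile were the 10 with the highest correlation. The labels state no pairing, and the replicate numbers were not used in the fit.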

Additional observations from a re-analysis of the deposited data

How the results depend on the processing

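The log2 fold changes of the 5 genes stayed negative under every alternative run, from -4.02 to -2.42 when 1 library was left out and from -3.59 to -1.49 otherwise, the smallest being Alas2 on log2(FPKM + 1), where the pseudocount exceeds its level in TP-18 tumors. The number of them called lower was 4, with 0 without a filter on low counts, 1 by limma-voom and 0 to 5 with 1 library left out. The cause was not tested. Lower calls in the red cell list ranged from 0 to 2 and calls in the heme synthesis list from 0 to 0 with 1 library left out. Over all genes, 1006 higher and 747 lower calls became 388 to 1216 and 111 to 1023 with 1 library left out. DESeq2 gave 1464 higher and 1240 lower calls. On FPKM, which has no TMM scaling, limma gave 1376 higher and 215 lower calls with a pseudocount of 1, and 1438 higher and 230 lower with 0.1, where the median log2 fold change of all genes was 0.13. With the replicate number as a block 547 genes were called higher and 231 lower, 3 of the 5 genes among them. Deviations from the group means correlated at 0.24, -0.08 and -0.04 in the 3 pairs of tumors with the same number. With 3 tumors in a group these values cannot show whether tumors of the same number shared more than that number. Summing the globin copies gave log2 fold changes of -3.12 (alpha sum), -3.34 (beta sum) and -3.57 (Alas2). Fewer tumors also mean less power, and Alas2 in TP-18 tumors rests on 63 counts in all.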
